A study of Mus musculus with 98 samples.

Results

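The sarcoplasmic reticulum calcium pump and its partners were taken as 6 genes, and all their rows were followed through 98 RNA-seq libraries of mouse hindlimb muscle. They are the pumps Atp2a1 and Atp2a2, the micropeptide genes Sln and Pln, and the calsequestrins Casq1 and Casq2. All 6 had a transcript level in every library, out of 24526 genes, and 5 of them had 75 of the 117460 splicing events in the deposited event table. Sln had none, and 1 of a separate set of 36 exons belonged to a member, Atp2a1.

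The animals carried the HSALR homozygous genotype, in which a human skeletal actin transgene with a long CTG repeat is transcribed in skeletal muscle, or were FVB/NJ mice without it. HSALR muscle is a model of the splicing defect of myotonic dystrophy, built on 1 transgene in skeletal muscle and not on the disease gene itself. Treated HSALR mice received (CAG)7 PMO, a morpholino oligomer against the repeat, either bare or joined to the EEV4 carrier (EEV4-PMO), and untreated ones received PBS. In gastrocnemius at 7 days there were 4 libraries each of EEV4-PMO at 15 and at 30 mg/kg, 4 of PMO at 30 mg/kg, 8 of HSALR PBS and 4 of FVB PBS. The gastrocnemius time course had 4 libraries each at 1, 2 and 4 days after 15 mg/kg EEV4-PMO, and 4 each of HSALR PBS and FVB PBS at 4 days. A quadriceps time course had the same groups plus 4 libraries at 7 days. Nascent RNA, which had taken up ethynyl uridine, and the matching total RNA came from quadriceps at 1 and 2 days after 15 mg/kg EEV4-PMO (3 libraries each) and from HSALR PBS at 4 days (4 each). In both time courses and in the nascent and total RNA cohort, PBS libraries were of 4 days only. At 1, 2 and 7 days in these cohorts, treatment and day of collection cannot be told apart. At 3 months there were 6 EEV4-PMO and 4 HSALR PBS quadriceps libraries. The labels used here give no age and do not say that libraries of 1 group came from separate animals, so p-values measure the spread between libraries.

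Each contraction begins when calcium leaves the sarcoplasmic reticulum and ends when the pump returns it. Atp2a1 encodes SERCA1, the pump of fast fibres, and Atp2a2 encodes SERCA2, whose 2a form serves slow fibres and heart. Sarcolipin (Sln) and phospholamban (Pln) are small membrane proteins that bind the pump and lower its activity, and the calsequestrins hold calcium inside the reticulum, Casq1 mainly in fast and Casq2 mainly in slow fibres and heart. Near its 3′ end Atp2a1 has an exon that adult fast muscle includes and that neonatal muscle skips, and its skipping is a known mark of myotonic dystrophy muscle.

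That exon is exon 22 of Atp2a1, 42 bases on the minus strand of chromosome 7 (chr7:126446545-126446586, GRCm38). The junctions below are shown because they carry the difference between the pump's forms. Lower case is the last 30 bases of exon 21, capitals are what follows up to and including the stop codon, and both were read from GENCODE transcripts.
Exon 22 included: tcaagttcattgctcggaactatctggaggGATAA
Exon 22 skipped: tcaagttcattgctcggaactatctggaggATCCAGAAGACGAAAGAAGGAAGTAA
With exon 22, reading passes 2 coding bases and meets a TAA stop, and the other 37 bases of the exon lie behind the stop, in the 3′ untranslated region. Without it, exon 23 (chr7:126445858-126446126) is read for 23 coding bases before its own TAA, which makes the protein 7 codons longer.

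Inclusion is given as PSI, the share of spliced transcripts that hold the exon, from 0 to 1. Exon 22 was skipped in most Atp2a1 transcripts of untreated HSALR muscle and in almost none of FVB muscle. At 7 days in gastrocnemius, the 8 HSALR PBS libraries had a lowest PSI of 0.114, a median of 0.172 and a highest of 0.356, against 0.996, 0.997, 0.997 and 0.998 in FVB. No HSALR library came near an FVB library. The difference was -0.807 ± 0.031 PSI (SE; limma, adjusted p = 7e-13). Calls of events needed adjusted p below 0.05 together with a PSI difference of 0.1 or more, and 2 of 61 tested events of the 6 genes were called here, where 0.555% of all events were. Events with 1 value throughout a cohort were kept in these tests; of the 76968 events of this cohort 46521 varied, and with only those 1.06% were called.

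Both time courses gave the same picture with a smaller gap. In gastrocnemius at 4 days, PSI was 0.327, 0.360, 0.443 and 0.301 in HSALR PBS, against 0.998, 0.997, 0.997 and 0.997 in FVB. In quadriceps at 4 days, it was 0.324, 0.552, 0.311 and 0.272 in HSALR PBS, against 0.997, 0.998, 0.997 and 0.999 in FVB. The groups were far apart in both muscles, and the quadriceps HSALR library of 0.552 (replicate 2) stood above its group. The differences were -0.640 ± 0.035 PSI in gastrocnemius (SE; adjusted p = 2.6e-08) and -0.633 ± 0.054 in quadriceps (SE; adjusted p = 8.6e-07). In each muscle 1 of 31 tested events of the 6 genes was called, exon 22, where 0.330% and 0.449% of all events were.

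EEV4-PMO raised inclusion with dose in gastrocnemius at 7 days, and bare PMO gave no call. The 15 mg/kg libraries had a PSI of 0.654, 0.651, 0.763 and 0.671 and the 30 mg/kg libraries 0.957, 0.882, 0.927 and 0.883, all above the highest HSALR PBS library. The lower dose averaged 0.685 ± 0.053 and the higher 0.912 ± 0.036 (SD, n = 4 each), against 0.190 ± 0.074 in HSALR PBS (SD, n = 8). Set on a scale where the HSALR PBS mean is 0% and the FVB mean 100%, the lower dose stood at 61.3% and the higher at 89.5%. Both doses were called against HSALR PBS, with a difference of 0.495 (adjusted p = 5.2e-08) for the lower and of 0.722 (adjusted p = 1.8e-11) for the higher, with 2 of 61 events called at each dose against backgrounds of 0.309% and 0.457%.

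The doses themselves differed by 0.228 ± 0.036 PSI (SE; adjusted p = 0.024), with no overlap between their libraries and 2 of 61 events called (background 0.0182%). That call was lost when the 2 groups were fitted alone (adjusted p = 1) and in 5 of 8 fits that left out 1 library (adjusted p up to 0.12). Even at 30 mg/kg all 4 libraries stayed under all 4 FVB libraries. The difference from FVB, -0.085 ± 0.036 PSI (SE), was not called (adjusted p = 0.93), and none of 61 events was called by limma, although 6 had an unadjusted p under 0.05 (background 0.0702%).

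PMO at 30 mg/kg had a PSI of 0.146, 0.147, 0.179 and 0.162, inside the HSALR PBS range. None of 61 events was called against HSALR PBS by limma and 1 had an unadjusted p under 0.05, and over all events 0% were called, with 2088 under that unadjusted threshold. At the same 30 mg/kg, EEV4-PMO was 0.754 ± 0.036 PSI above PMO (SE; adjusted p = 1.2e-10), with 2 of 61 events called (background 0.377%). The only stated difference between the agents is the EEV4 carrier.

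**Figure D1:**
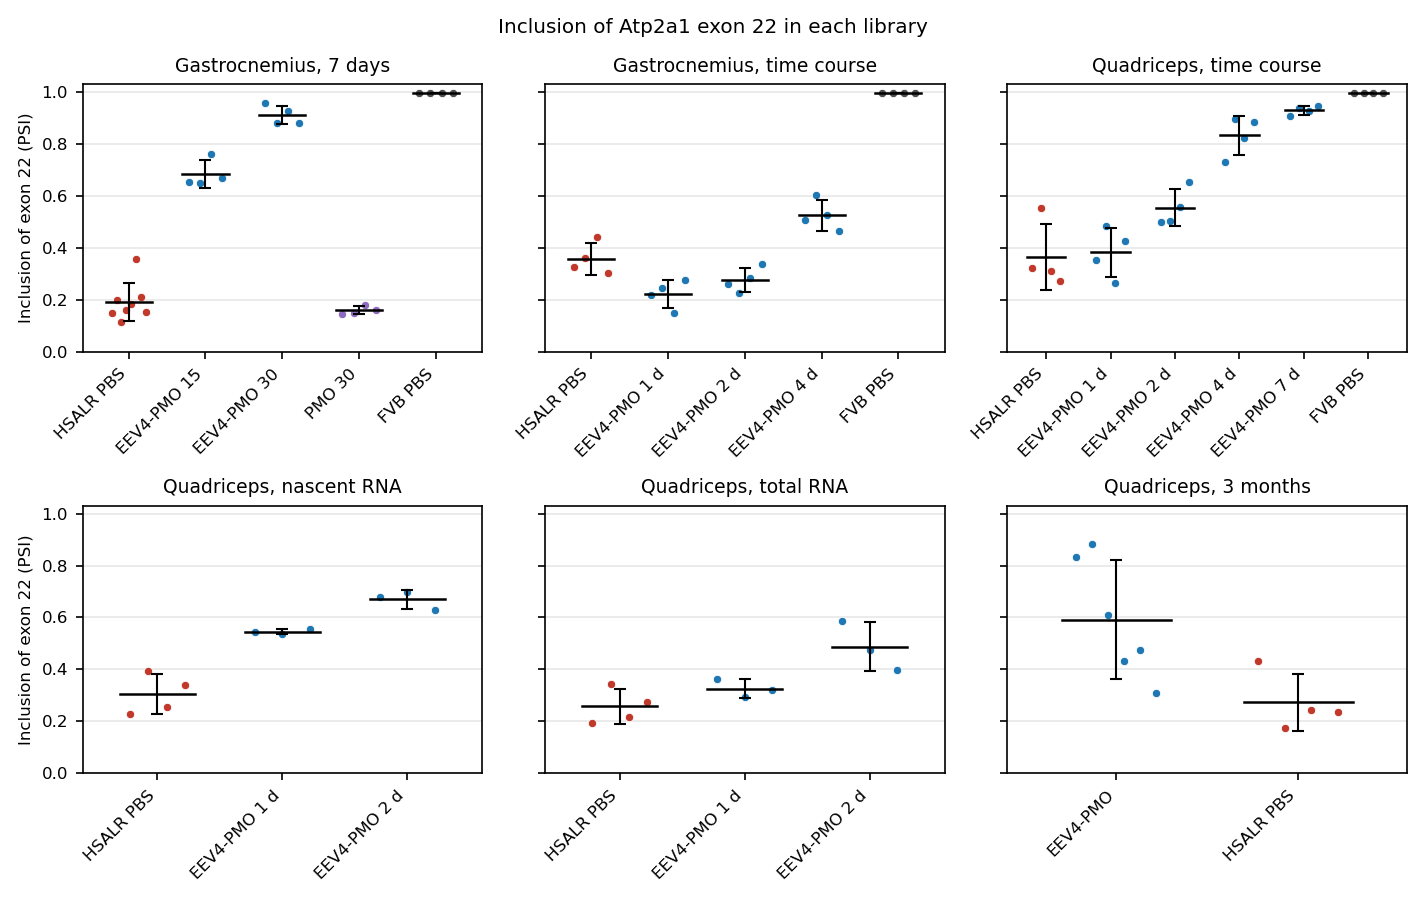
Inclusion (PSI) of Atp2a1 exon 22 in each library, by group, with the mean and SD in black; doses are in mg/kg, and EEV4-PMO was given at 15 mg/kg outside the first panel. FVB libraries sit at 0.996 to 0.999, the 30 mg/kg EEV4-PMO libraries at 0.882 to 0.957, and the 3-month treated libraries spread from 0.309 to 0.885.

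Over time at 15 mg/kg, inclusion rose in quadriceps at 4 and 7 days. HSALR PBS was of 4 days, so at the other times treatment and day of collection cannot be told apart. In quadriceps HSALR PBS averaged 0.365 ± 0.127, and treated muscle averaged 0.382 ± 0.095 on day 1, 0.555 ± 0.071 on day 2, 0.834 ± 0.075 on day 4 and 0.930 ± 0.017 on day 7 (SD, n = 4 each). All libraries of 4 days (0.732 to 0.895) and 7 days (0.908 to 0.947) lay above all HSALR PBS libraries, and those of 1 and 2 days overlapped with them. The changes at 4 days (0.469 ± 0.054 PSI, SE; adjusted p = 0.00023) and 7 days (0.566 ± 0.054, SE; adjusted p = 1.3e-05) were called, each as 1 of 31 events, against backgrounds of 0.150% and 0.256%. Fitted with their 2 groups alone, neither passed (adjusted p = 0.23 at 4 days and 0.06 at 7 days).

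None of 31 events was called by limma at 1 or 2 days in quadriceps, where 5 had an unadjusted p under 0.05 at each time (backgrounds 0% and 0.0145%). The rise of 0.190 ± 0.054 PSI at 2 days (SE; adjusted p = 0.45) did pass without HSALR PBS replicate 2, the library at 0.552 (0.252, adjusted p = 0.034). At 7 days the difference from FVB was -0.067 ± 0.054 PSI (SE; adjusted p = 0.93), and none of 31 events was called by limma, with 1 under an unadjusted p of 0.05 (background 0.0960%). All 4 treated libraries were again under all 4 FVB libraries.

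In gastrocnemius the order was different at the start, again against HSALR PBS of 4 days. HSALR PBS averaged 0.358 ± 0.062 PSI, and treated muscle averaged 0.222 ± 0.055 on day 1, 0.277 ± 0.047 on day 2 and 0.525 ± 0.059 on day 4 (SD, n = 4 each). All 4 libraries of 1 day lay below all 4 HSALR PBS libraries (a difference of -0.136 ± 0.035 PSI, SE; adjusted p = 0.77), and all 4 of 4 days lay above them (0.168 ± 0.035, SE; adjusted p = 0.27). None of 31 events was called by limma at 1, 2 or 4 days, with 1, 1 and 2 of them under an unadjusted p of 0.05. Over all events the backgrounds, in the same order, were 0%, 0% and 0.00667%, so the tests called almost nothing in these comparisons.

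Replicate 2 of the 4-day treated gastrocnemius group stood apart in what else it held. Its 5 lymphocyte markers summed to 292 TPM and its 4 fat markers to 1104 TPM, against 2.31 to 4.28 and 14.4 to 63.5 TPM in the other 3 libraries of its group. It had the group's highest exon 22 PSI, 0.604, and the lowest Atp2a1 level, 12536 TPM. Without it the 4-day change in exon 22 was 0.141 (adjusted p = 0.57). Replicate 1 of quadriceps FVB held 1483 TPM of fat markers, the highest sum of any library, against 32.2 to 152 TPM in the other 3 of its group. Leaving out each library in turn, this one included, kept the quadriceps calls between HSALR PBS and FVB in all 8 fits, at -0.695 to -0.602 PSI for exon 22 and a log2 change of 4.03 to 4.84 for Sln.

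The 4-day change was smaller in gastrocnemius than in quadriceps (a difference of changes of -0.302 ± 0.066 PSI, SE), which did not pass over all events (adjusted p = 0.43), and none of 31 events was called by limma, with 1 under an unadjusted p of 0.05 (background 0.00554%). This difference passed without quadriceps HSALR PBS replicate 2 (-0.364, adjusted p = 0.0043). Muscle and cohort cannot be told apart here. The HSALR effect itself differed between the muscles by -0.006 ± 0.066 PSI (SE; adjusted p = 1), with none of 31 events called by limma and 3 under an unadjusted p of 0.05 (background 0.00738%). Between gastrocnemius and quadriceps of the same genotype, none of 31 events was called by limma in FVB or in HSALR PBS, where 4 and 2 had an unadjusted p under 0.05 and 0.790% and 0.406% of all events were called.

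In nascent RNA exon 22 inclusion rose at 2 days of treatment. The nascent libraries had a PSI of 0.544, 0.536 and 0.555 on day 1 and 0.680, 0.70 and 0.630 on day 2, against 0.228, 0.393, 0.256 and 0.340 in HSALR PBS. Every treated nascent library lay above every HSALR PBS nascent library. In total RNA of the same groups it was 0.363, 0.293 and 0.322 on day 1 and 0.587, 0.475 and 0.398 on day 2, against 0.193, 0.344, 0.216 and 0.274 in HSALR PBS, so that the 1-day total libraries overlapped with HSALR PBS and the 2-day ones did not.

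The 2-day change in nascent RNA was called (0.366 ± 0.047 PSI, SE; adjusted p = 0.0049), as 1 of 61 events (background 0.123%), and was lost when its 2 groups were fitted alone (adjusted p = 0.59). In nascent RNA at 1 day the change was 0.241 ± 0.047 PSI (SE; adjusted p = 0.072), and it passed without HSALR PBS replicate 2 (0.270, adjusted p = 0.034). In total RNA it was 0.069 ± 0.047 at 1 day (SE; adjusted p = 1) and 0.230 ± 0.047 at 2 days (SE; adjusted p = 0.27). None of 61 events was called by limma in nascent RNA at 1 day (6 at an unadjusted p under 0.05; background 0.0785%) or in total RNA at 1 day (0 at an unadjusted p under 0.05; background 0.00138%) and 2 days (2; background 0.0151%).

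Tested directly, the change in nascent RNA exceeded that in total RNA by 0.172 ± 0.066 PSI at 1 day (SE; adjusted p = 0.88) and by 0.136 ± 0.066 at 2 days (SE; adjusted p = 0.79). Neither passed over all events, and none of 61 events was called by limma, with 2 under an unadjusted p of 0.05 each time (backgrounds 0.00275% and 0%). In HSALR PBS, nascent RNA was 0.048 ± 0.043 PSI above total RNA (SE; adjusted p = 0.69), and none of 61 events was called by limma there, with 7 under an unadjusted p of 0.05 (background 1.75%). These fits took nascent and total libraries as unpaired, although their numbers paired them, so the SEs do not use the pairing. In every same-numbered pair, treated or not, nascent PSI was above total PSI. With the pairs in the fit, no call changed either.

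At 3 months the 6 treated quadriceps libraries ranged in PSI from 0.309 to 0.885 with a median of 0.543, against 0.433, 0.175, 0.245 and 0.236 in HSALR PBS. Of the 6 treated libraries, 4 lay above all untreated ones and 2 lay inside their range. The difference of 0.319 ± 0.119 PSI (SE) was not called (adjusted p = 0.76), and none of 14 events was called by limma, with 1 under an unadjusted p of 0.05 and 0% called over all events, 1320 of them under that unadjusted threshold.

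A further Atp2a1 event moved with exon 22. It sets exon 20 against exon 21 as mutually exclusive and ends on exon 23, so it reads the junction that skips exon 22 and is not an independent measure. The 15 mg/kg EEV4-PMO libraries had values of 0.788, 0.763, 0.836 and 0.776, and the 30 mg/kg ones 0.964, 0.910, 0.939 and 0.905, against 0.509 to 0.623 in the 8 HSALR PBS libraries, and 0.997 or 0.998 in FVB. It was the other event called in each 7-day gastrocnemius comparison that had 2 calls.

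Of the 75 events, 70 had the values to enter at least 1 fit, and 68 of these gave no call in any comparison they entered, while 5 were not tested. Of the 60 skipped exon events, 51 never fell under 0.9 in a library that had a value, and only 9 spanned 0.1 or more. Besides exon 22, only exon 4 of Atp2a2 among those 9 had a value in all 98 libraries (chr5:122491681-122491785, 105 bases), and it stayed between 0.871 and 1.000. Exon 2 of Pln ranged from 0 to 0.726 with a median of 0 in 92 libraries, and exon 3 of Atp2a1 from 0.869 to 1.000 in 44. The other 5, in exons 3 and 4 of Casq1 and exons 11 and 13 of Atp2a1, had values in only 10 to 29 libraries and fell as low as 0 in 3 cases.

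The transcript levels of the 6 genes are given as TPM, a share of all transcripts in the library, and compared on the log2(TPM + 1) scale, with a gene called at an adjusted p under 0.05. In bulk muscle, fewer fibres of a type and less RNA per fibre cannot be told apart. In HSALR PBS against FVB, 3 of the 6 were called in gastrocnemius at 7 days (1 higher, 2 lower; background 20.6% of genes), 2 in gastrocnemius at 4 days (1 each way; 8.26%) and 1 in quadriceps (higher; 13.7%). Against HSALR PBS in gastrocnemius at 7 days, EEV4-PMO gave 1 call at 15 mg/kg (background 11.1%) and 2 at 30 mg/kg (15.0%), all higher. PMO gave none of 6 by limma, with 0 under an unadjusted p of 0.05, where 0% of genes were called and 1086 had an unadjusted p under 0.05. EEV4-PMO at 30 mg/kg had 1 gene higher than PMO (11.7%) and 1 higher than FVB (12.7%), and none of 6 was called by limma against 15 mg/kg, with 1 under an unadjusted p of 0.05 (0.0432%).

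In the time courses, 2 genes were higher in quadriceps at 7 days than in HSALR PBS (background 13.9%) and 1 was higher than in FVB (12.9%). By limma none of 6 was called in quadriceps at 1, 2 or 4 days, with 0 under an unadjusted p of 0.05 at each time (0.615%, 1.94% and 9.10%). None was called by limma in gastrocnemius at 1, 2 or 4 days, with 3, 3 and 1 under an unadjusted p of 0.05 (1.38%, 1.07% and 0.518%). Nor was any called by limma at 3 months, with 1 under an unadjusted p of 0.05 (7.65%).

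Sln carried the largest changes of the 6. At 7 days in gastrocnemius, the 8 HSALR PBS libraries had 334 TPM as the lowest, 755 as the median and 875 as the highest value, against 40.2, 50.1, 9.42 and 15.8 TPM in FVB. The mean was 689 ± 184 TPM (SD, n = 8) in HSALR PBS and 28.9 ± 19.4 TPM in FVB (SD, n = 4), 23.9 times higher, with a log2 change of 4.75 ± 0.36 (SE; adjusted p = 5e-09). At 4 days the means stood 39.9 times apart in gastrocnemius (651 ± 245 TPM in HSALR PBS and 16.3 ± 6.32 in FVB; adjusted p = 1.1e-09) and 19.2 times in quadriceps (185 ± 54.2 TPM in HSALR PBS and 9.62 ± 7.78 in FVB; adjusted p = 4.8e-06; SD, n = 4 each). In none of these pairs did the genotypes overlap.

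Sln stayed far above the FVB level at 7 days of the treatment that raised exon 22. In gastrocnemius, Sln had 1030, 2179, 926 and 1416 TPM at 15 mg/kg EEV4-PMO and 1136, 1014, 734 and 1262 TPM at 30 mg/kg, and PMO had 977, 1132, 591 and 1665 TPM. All 4 libraries at 15 mg/kg were above all 8 HSALR PBS libraries, and the 30 mg/kg and PMO libraries overlapped with them. The log2 changes against HSALR PBS, 0.98 ± 0.36 for the lower dose (adjusted p = 0.086), 0.62 ± 0.36 for the higher (adjusted p = 0.28) and 0.63 ± 0.36 for PMO (adjusted p = 0.70; SE), were not called. Against FVB, 30 mg/kg EEV4-PMO was 35.9 times higher (log2 change 5.37 ± 0.42, SE; adjusted p = 4.4e-08).

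In quadriceps at 7 days, Sln had 874, 1004, 626 and 1120 TPM after EEV4-PMO, against 190, 181, 118 and 251 TPM in HSALR PBS and 12.9, 3.82, 19.1 and 2.71 TPM in FVB. The 3 groups were fully separate. The treated mean was 4.90 times that of HSALR PBS (log2 change 2.30 ± 0.51, SE; adjusted p = 0.0048) and 94.2 times that of FVB (6.72 ± 0.51, SE; adjusted p = 3.6e-08). Both PBS groups of this cohort were taken at 4 days, so treatment and day of collection cannot be told apart in this contrast. At 1, 2 and 4 days the quadriceps means were 306 ± 52.8, 286 ± 164 and 293 ± 172 TPM (SD, n = 4 each), none of them called. All 4 libraries of 1 day lay above all 4 of HSALR PBS, and those of 2 and 4 days overlapped with them.

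**Figure D2:**
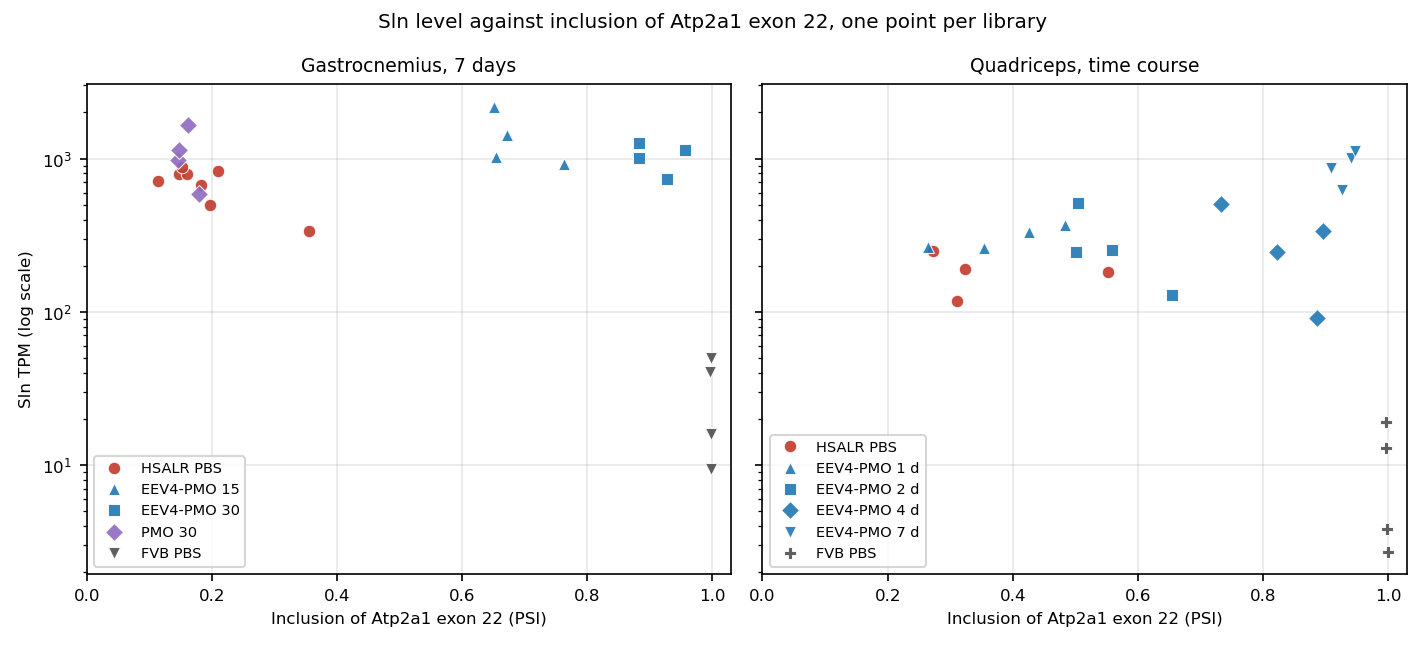
Sln level (TPM, log scale) against inclusion (PSI) of Atp2a1 exon 22, 1 point per library, in the 7-day gastrocnemius cohort (doses in mg/kg) and the quadriceps time course. In gastrocnemius the 30 mg/kg EEV4-PMO libraries lie at 0.882 to 0.957 PSI with 734 to 1262 TPM of Sln, while FVB libraries, at 0.996 to 0.999 PSI in both muscles, have 2.71 to 50.1 TPM.

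In gastrocnemius Sln averaged 651 ± 245 TPM in HSALR PBS, and with EEV4-PMO 703 ± 107 on day 1, 676 ± 105 on day 2 and 339 ± 67.9 on day 4 (SD, n = 4 each). The 4-day libraries overlapped with HSALR PBS, and the log2 change of -0.88 ± 0.26 (SE) was not called (adjusted p = 0.15), nor was it without replicate 2 (adjusted p = 0.13), which held lymphocyte and fat transcripts. At 3 months Sln ranged in the 6 treated quadriceps libraries from 72.9 to 395 TPM with a median of 176, against 575, 177, 565 and 235 TPM in HSALR PBS. The log2 change of -0.93 ± 0.47 (SE; adjusted p = 0.21) was not called.

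Scaled to its target, Sln came to 3.64 ± 0.965 transcripts per 100 of both pumps in 7-day gastrocnemius of HSALR PBS (SD, n = 8) and 0.131 ± 0.0851 in FVB (SD, n = 4). EEV4-PMO at 30 mg/kg had 4.25 ± 0.784 (SD, n = 4). In quadriceps the ratio was 3.53 ± 0.801 at 7 days of EEV4-PMO, against 0.926 ± 0.321 for HSALR PBS and 0.0423 ± 0.0357 for FVB (SD, n = 4 per group). In both muscles the treated and FVB ranges were apart.

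Some of the 4 markers of regenerating fibres were called higher in some of the same contrasts. In gastrocnemius at 7 days, Myh8, the perinatal myosin, was the 1 of 4 higher in HSALR PBS than in FVB (log2 change 2.13), where 20.6% of all genes were called. Myh3, the embryonic myosin, and Myl4, an embryonic light chain, were higher at 30 mg/kg EEV4-PMO than in HSALR PBS (2.95 and 1.43), where 15.0% of all genes were called. In quadriceps, Myh8 was higher in HSALR PBS than in FVB (1.48), where 13.7% of all genes were called. Between treated libraries at 7 days and HSALR PBS, 0 of the 4 markers were called by limma, where 13.9% of all genes were. Their summed level was 75.9 ± 31.2 TPM in treated quadriceps at 7 days, against 73.7 ± 43.9 TPM for HSALR PBS and 34.3 ± 7.95 TPM for FVB (SD, n = 4 per group). At 4 days of EEV4-PMO the summed level, not tested itself, was 203 ± 71.2 TPM in quadriceps, against 73.7 ± 43.9 TPM in HSALR PBS, and 164 ± 23.8 TPM in gastrocnemius, against 85.4 ± 56.2 TPM in HSALR PBS (SD, n = 4 each). The calls at 4 days were Myog, a regulator of muscle differentiation, in quadriceps (1.75) and Myh3 and Myl4 in gastrocnemius (2.49 and 1.47), all higher. Over all genes, 9.10% were called in that quadriceps contrast and 0.518% in the gastrocnemius one. Macrophage markers, 2 of 3, were also higher in 7-day HSALR PBS gastrocnemius than in FVB, where 20.6% of all genes were called. The part of these markers in the Sln level and in exon 22 inclusion was not tested.

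**Figure D3:**
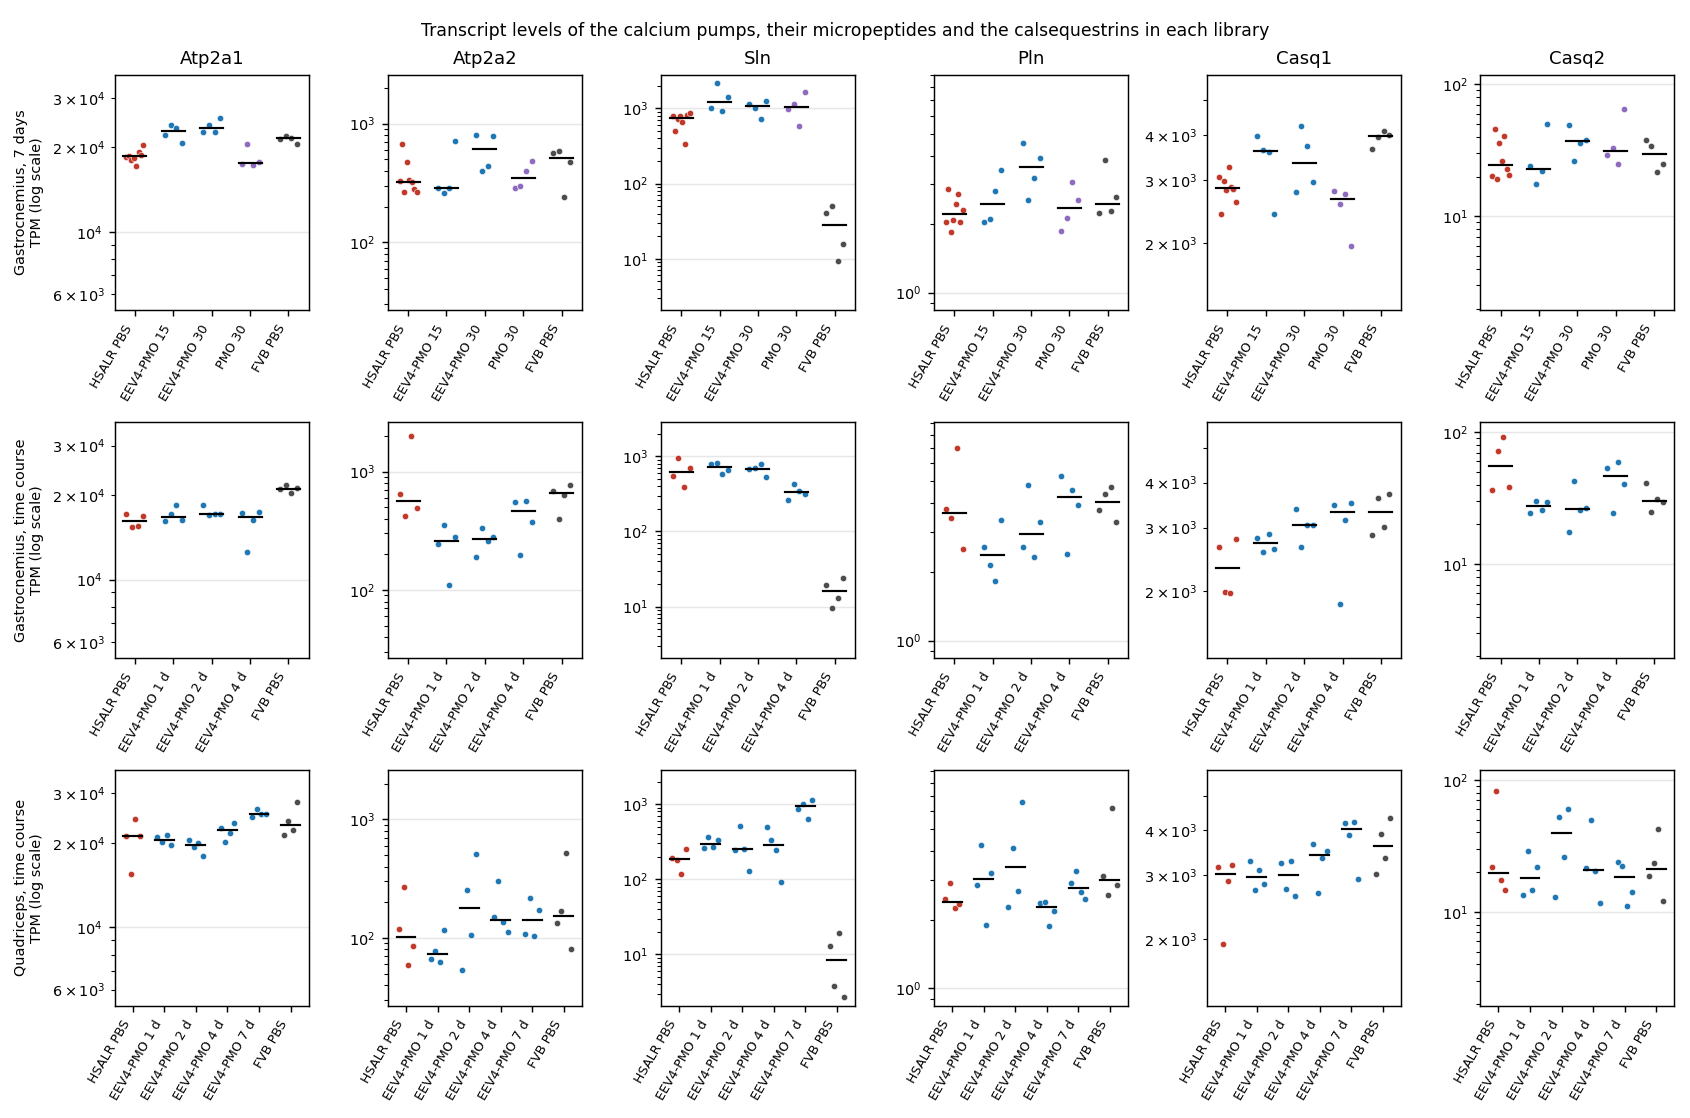
TPM (log scale) of the 6 genes in each library of the 7-day gastrocnemius cohort and both time courses, with the group median as a bar; doses are in mg/kg. Sln of FVB libraries (2.71 to 50.1 TPM) is the level that stands apart from all other groups.

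Atp2a1 was the most abundant of the 6, and its level moved little beside its splicing. At 7 days in gastrocnemius, it ranged from 17165 to 20330 TPM with a median of 18548 in the 8 HSALR PBS libraries, against 21452, 22008, 21517 and 20604 TPM in FVB. The groups did not overlap, and the log2 change was -0.20 ± 0.06 (SE; adjusted p = 0.013). In gastrocnemius at 4 days it was -0.38 ± 0.10 (SE; adjusted p = 0.020), with 17079, 15342, 15474 and 16860 TPM in HSALR PBS, against 20977, 21652, 20405 and 21151 TPM in FVB. That call was lost in 3 of 8 fits that left out 1 library (FVB replicate 2 or HSALR PBS replicate 2 or 3; adjusted p 0.053 to 0.066). In quadriceps, where the groups overlapped, the change of -0.23 ± 0.11 was not called (SE; adjusted p = 0.17).

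EEV4-PMO raised the Atp2a1 level at 7 days. The libraries had 22172, 24015, 23434 and 20674 TPM at 15 mg/kg and 22603, 23980, 22709 and 25474 TPM at 30 mg/kg, against PMO at 17362, 20515, 17235 and 17744 TPM. Every EEV4-PMO library was above every HSALR PBS and PMO library. The log2 change against HSALR PBS was 0.28 ± 0.06 for the lower dose (adjusted p = 0.0028) and 0.35 ± 0.06 for the higher (adjusted p = 0.00024), which was also higher than PMO by 0.38 ± 0.07 (adjusted p = 0.00055; SE).

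In quadriceps at 7 days Atp2a1 had 24679, 26425, 25385 and 25430 TPM after EEV4-PMO, against 21122, 15556, 24365 and 21086 TPM in HSALR PBS. HSALR PBS was of 4 days, so treatment and day of collection cannot be told apart here. The treated libraries were all higher, and the log2 change was 0.33 ± 0.11 (SE; adjusted p = 0.042). It fell to 0.20 (adjusted p = 0.15) without HSALR PBS replicate 2, the library of 15556 TPM, and was not called in 7 of the 8 fits that left out 1 library. Without the filter on low values, the Atp2a1 calls against FVB were lost at 7 days (adjusted p = 0.26) and 4 days (adjusted p = 0.26) in gastrocnemius, as were those at 15 mg/kg (adjusted p = 0.15), in treated quadriceps at 7 days (adjusted p = 0.35), at 30 mg/kg EEV4-PMO against PMO (adjusted p = 0.073) and between the muscles in HSALR PBS (adjusted p = 0.14). That is 6 of the 8 Atp2a1 calls, those at 30 mg/kg against HSALR PBS and in nascent against total RNA being kept.

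Casq1, the fast fibre calsequestrin, was lower in 7-day HSALR gastrocnemius. At 7 days in gastrocnemius it ranged from 2409 to 3261 TPM with a median of 2845 in the 8 HSALR PBS libraries, against 3660, 3942, 4099 and 4001 TPM in FVB, without overlap (log2 change -0.47 ± 0.12, SE; adjusted p = 0.010). At 4 days the log2 change was -0.51 ± 0.17 in gastrocnemius (adjusted p = 0.084) and -0.40 ± 0.16 in quadriceps (adjusted p = 0.094; SE), neither of them called. With EEV4-PMO it was 0.25 ± 0.12 at 30 mg/kg (adjusted p = 0.20) and 0.46 ± 0.16 in quadriceps at 7 days (adjusted p = 0.052; SE). Of the 9 fast fibre markers, 6 were lower and 1 higher in 7-day HSALR PBS gastrocnemius than in FVB. Of all genes, 20.6% were called in that contrast, 1635 higher and 1220 lower. The summed level of the fast fibre markers there was 119973 ± 7891 TPM in HSALR PBS (SD, n = 8) and 152639 ± 9875 TPM in FVB (SD, n = 4). Their part in the Atp2a1 and Casq1 levels was not tested.

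Atp2a2, Casq2 and Pln gave few calls. Atp2a2 made up 1.94 ± 0.737% of both pumps in 7-day gastrocnemius of HSALR PBS (SD, n = 8) and 2.12 ± 0.695% in FVB (SD, n = 4). It was called in no comparison of genotype or treatment. In HSALR PBS gastrocnemius at 4 days, 1 library had 1998 TPM of Atp2a2 against 641, 421 and 493 TPM in the others. The same library, replicate 3, had the highest Casq2 (91.2 TPM) and Pln (6.99 TPM) of its group, and 19410 TPM of summed slow fibre markers, where the group median was 4586.

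The 1-day and 2-day gastrocnemius groups lay wholly below HSALR PBS in Atp2a2, at 110 to 351 and 191 to 335 TPM, against 421 to 1998 TPM. The log2 changes were -1.66 ± 0.45 at 1 day (adjusted p = 0.070) and -1.45 ± 0.45 at 2 days (adjusted p = 0.13; SE), neither called. The median log2 change of the 8 slow fibre markers was -1.57 at 1 day and -1.56 at 2 days in the same comparisons. By limma 0 of 8 were called, beside 1.38% and 1.07% of all genes, and the part of these markers in the Atp2a2 values was not tested.

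Pln rose in 1 comparison. At 30 mg/kg EEV4-PMO it had 4.53, 2.54, 3.19 and 3.92 TPM, against a range of 1.84 to 2.87 TPM with a median of 2.21 in the 8 HSALR PBS libraries. The groups overlapped in 1 treated library, and the log2 change was 0.45 ± 0.14 (SE; adjusted p = 0.030). It was lost in 3 of 12 fits that left out 1 library, with adjusted p up to 0.14 (without 30 mg/kg replicate 1). In the same contrast Tnni1 was the 1 slow fibre marker of 8 called (higher), where 15.0% of all genes were called. The part of Tnni1 in the Pln level was not tested. Casq2 stayed between 2.54 and 91.2 TPM over all libraries and was called nowhere.

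**Figure D4:**
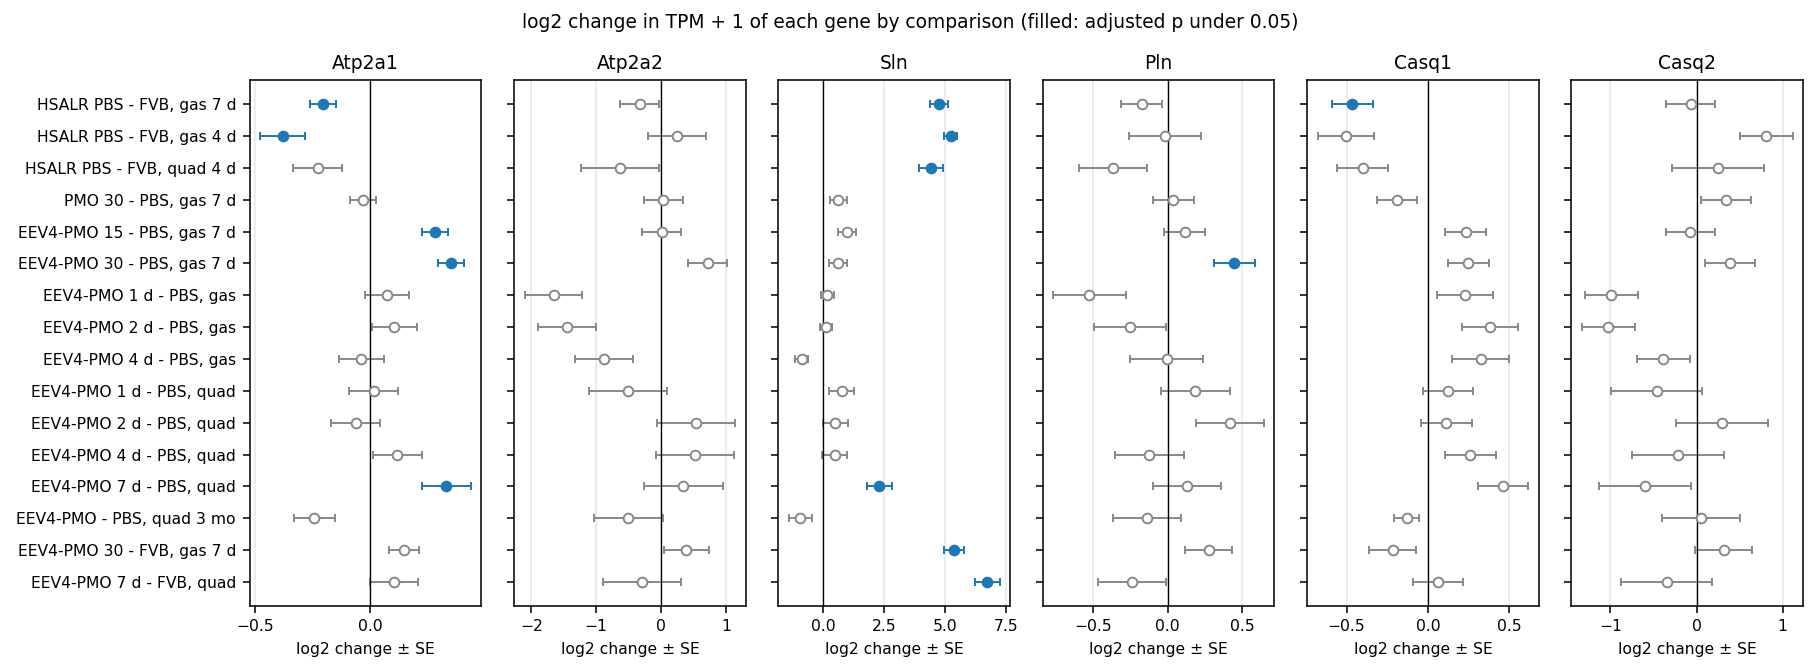
log2 change in TPM + 1 (± SE) of each gene in 16 comparisons, the group before the dash minus the one after it; filled blue points were called, each panel has its own scale, and gas and quad are gastrocnemius and quadriceps. Sln is 4.42 to 5.23 higher in HSALR PBS than in FVB and 5.37 and 6.72 higher in treated muscle at 7 days, on an axis much wider than that of Atp2a1.

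The slow pump differed between the gastrocnemius and quadriceps time courses, in which muscle and cohort cannot be told apart. In HSALR PBS at 4 days, Atp2a2 had 641, 421, 1998 and 493 TPM in gastrocnemius, against 119, 267, 59.0 and 85.6 TPM in quadriceps, without overlap (log2 change 2.66 ± 0.55, SE; adjusted p = 0.00041). In FVB it had 679, 399, 640 and 771 TPM in gastrocnemius, against 134, 169, 518 and 79.9 TPM in quadriceps, where 1 quadriceps library lay inside the gastrocnemius range (1.78 ± 0.55, SE; adjusted p = 0.026). That call was lost in 6 of 8 fits that left out 1 library, with adjusted p up to 0.12 (without FVB quadriceps replicate 4). Slow fibre markers moved with Atp2a2, 8 of 8 being higher in HSALR PBS gastrocnemius and 3 of 8 in FVB gastrocnemius. Of all genes, 21.8% and 14.4% were called in these contrasts, and the part of the markers in the pump's level was not tested.

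Sln was also higher in HSALR PBS gastrocnemius than in HSALR PBS quadriceps, 3.52 times in the mean (log2 change 1.78 ± 0.43, SE; adjusted p = 0.0020), and Atp2a1 was lower (-0.33 ± 0.10, SE; adjusted p = 0.015), a call lost without quadriceps replicate 3 (-0.24, adjusted p = 0.11). The median of all genes was itself 0.14 higher in that contrast. Rescaled to the typical gene the changes were 2.50 for Atp2a2, 1.62 for Sln and -0.49 for Atp2a1. Muscle and cohort cannot be told apart in these contrasts. In the cohort with nascent RNA, total RNA of HSALR PBS quadriceps at 4 days had 347 to 505 TPM of Sln. HSALR PBS had 118 to 251 TPM in the quadriceps time course and 391 to 962 TPM in the gastrocnemius one. In FVB the Sln difference of 0.97 ± 0.43 was not called (SE; adjusted p = 0.13), except without quadriceps replicate 3 (1.39, adjusted p = 0.031). Of the 6 genes, 3 were called in HSALR PBS (2 higher, 1 lower; background 21.8%) and 1 in FVB (higher; 14.4%).

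None of the 6 was called by limma for a difference between the muscles in the HSALR effect, with 0 under an unadjusted p of 0.05 (background 0.00724%), or for the 4-day treatment effect, with 1 under an unadjusted p of 0.05 (1.38%). For Sln the first difference was 0.81 ± 0.60 (adjusted p = 0.81) and the second -1.35 ± 0.60 (adjusted p = 0.30; SE, log2).

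Newly made RNA held a smaller share of the abundant members. In HSALR PBS quadriceps, Atp2a1 had 7332, 7399, 7724 and 6847 TPM in nascent RNA, against 24304, 22204, 21045 and 20629 TPM in total RNA (log2 change -1.59 ± 0.11, SE; adjusted p = 1.1e-09). Sln had 137, 108, 99.9 and 77.1 TPM in nascent RNA, against 505, 415, 375 and 347 TPM in total RNA (-1.97 ± 0.47, SE; adjusted p = 0.0011), and Casq1 changed by -0.80 ± 0.12 (SE; adjusted p = 6.6e-06). No nascent library overlapped with a total one for these genes.

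This comparison called 79.3% of all genes, and the median gene was 0.73 higher in nascent RNA on the log2 scale. The 3 called members, all lower, moved against that median, and rescaled to it they changed by -2.40 for Atp2a1, -2.78 for Sln and -1.62 for Casq1. Rescaled in this way, Atp2a2 (-1.51, adjusted p = 0.022) and Pln (-0.56, adjusted p = 0.0059) were also lower by limma. Casq2 (-0.94, adjusted p = 0.20) still gave no call. With treatment none of 6 was called by limma in nascent RNA at 1 day (0 at an unadjusted p under 0.05; background 1.05%) and 2 days (2; 6.26%), or in total RNA at 1 day (0; 0.0144%) and 2 days (0; 0.590%). The difference between the nascent and total changes called none of 6 by limma, with 0 under an unadjusted p of 0.05 at both times (0.00720% and 0%, with 601 genes under that threshold at 2 days).

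Other genes of muscle calcium handling were counted from lists of 27 tested genes. They cover the remaining pumps, proteins of the reticulum lumen, the release channel and triad, cytosolic buffers and store-operated entry. Other micropeptides are barely covered: of 5 listed, 2 had values and 1 averaged at least 1 TPM in each group. Between HSALR PBS and FVB in gastrocnemius at 7 days, 6 were higher and 4 lower, where 20.6% of all genes were called, with a median log2 change of -0.05 beside 0.00 over all genes. The genes named here and below are some of those called, and their directions do not stand for the rest. Cacng1, the gamma subunit of the muscle calcium channel, was higher (0.87), as was Calr, calreticulin (0.29), and Jsrp1, a triad protein (0.26). Jph2, the junctophilin that ties the reticulum to the T-tubule, was lower (-0.38).

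At 30 mg/kg EEV4-PMO, 5 of the 27 were higher and 4 lower than in HSALR PBS, where 15.0% of all genes were called, with a median of 0.06 beside 0.05 over all genes. Ryr1, the calcium release channel (0.34), Stim1, the calcium sensor of the reticulum (0.29), and Jph2 (0.23) were higher, and Cacng1 (-0.46), Calr (-0.42) and Jsrp1 (-0.27) were lower. In treated quadriceps at 7 days 6 were higher and 1 lower, where 13.9% of all genes were called, with Cacnb1, a channel subunit, at 0.52, Ryr1 at 0.52 and Calr at -0.58. At 3 months 6 were lower and 0 higher, where 7.65% of all genes were called, 1024 lower and 13 higher, and the median was -0.18 beside -0.17 over all genes.

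Across the 88 total RNA libraries, with each cohort's mean subtracted, each member had a different set of nearest genes in log2(TPM + 1) among 13747. These are descriptions, since libraries of a group share their condition. Atp2a1 went most closely with Pygm, muscle glycogen phosphorylase (Pearson r = 0.88), Phka1 (0.86) and Gpt2 (0.84), and Casq1 with Pvalb, the fast fibre calcium buffer parvalbumin (0.92), Slc37a4 (0.90) and Phkg1 (0.88). Atp2a2 went with Tpm3, slow tropomyosin (0.95), Myh6 (0.94) and Tnni1, slow troponin I (0.92), and Casq2 with Myoz2 (0.91), Pdlim1 (0.87) and Esrrb (0.85).

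Sln went most closely with Uchl1, a deubiquitinase (0.91), hACTA1, the human actin row of the table (0.91), and Cpne2 (0.88). FVB and HSALR libraries entered these correlations together, so the difference between the genotypes is part of them. Correlation within HSALR libraries alone was not tested. The nearest genes to Pln were Gm5532 (0.71), Rspo3 (0.70) and Fzd9 (0.70). Among the members, Atp2a2 had r = 0.74 with Casq2 and 0.69 with Pln, Atp2a1 had 0.68 with Casq1, and Sln stayed between -0.33 and 0.05 with the other members.

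Ordered by mean over the 21 groups of total RNA, neighbouring groups overlapped in 20 of 20 steps for Atp2a1, Atp2a2, Pln, Casq1 and Casq2. Sln overlapped in 19 of 20 steps, the gap lying between the highest FVB group (28.9 TPM) and the lowest HSALR group (185 TPM). Exon 22 inclusion also overlapped in 19 of 20 steps, with the gap between the 7-day treated quadriceps (0.930) and the FVB groups.

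Against the labelled tissue, the 9 fast fibre markers summed to between 62182 and 162927 TPM in the 98 libraries. Of 6 heart markers, 1 was expressed widely enough to be tested.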

How the data were processed

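Per the labels' protocols, ribosomal RNA was depleted and strand-specific RNA-seq libraries were prepared. The deposited gene values are TPM, and the deposited splicing values are PSI fractions of rMATS events, per the file headers. Per the submitters' processing notes, cutadapt, kallisto and STAR were used and GRCm38 and mm10 were the builds, with no role or version given in the sources used here. Since TPM and PSI carry no read counts, depth is unknown and counting intervals are not given. TPM summed to 995059 to 999994 per library, and 2 gene rows without a value were left out.

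Here, limma 3.58.1 (R 4.3.3) was fitted per cohort with 1 coefficient per group and a trend in the prior variance, on log2(TPM + 1) for genes with a mean of at least 1 TPM in the fit and on linear PSI for events that had values throughout the fit. The log2(TPM + 1) scale understates changes of low genes such as Pln. Adjusted p-values are Benjamini-Hochberg over all features tested. Both steps were also run on simulated data, whose outcome is not given here. That simulation left out events without variation, which the fits kept, and placed changes only in events of intermediate mean PSI. The muscles were compared in 1 fit of both time courses, with their libraries taken as unpaired. Same-numbered gastrocnemius and quadriceps libraries correlated in their deviations from the group means at 0.087 to 0.164 in FVB and 0.034 to 0.237 in HSALR PBS. In each genotype 3 of 4 pairs were above 0.1 and 3 of 4 went best with their own number. The labels do not say if such pairs share an animal, and the SEs between the muscles use no pairing. Every member is named, and nearest genes are the 3 with the highest Pearson r. The members and gene lists were chosen with earlier results of these data known. Library numbers paired nascent with total RNA, where same-numbered HSALR PBS libraries correlated in their deviations at 0.128 to 0.293 in 4 of 4 pairs. Over all groups 9 of 10 pairs were above 0.1, the lowest, at 1 day, being 0.099, and 9 of 10 went best with their own number. The main fits did not use this pairing. The exon of the separate set of 36 matched exon 22 within 0.008 PSI in all 98 libraries. Alternatives were other pseudocounts, no filter, a rescaling by median ratio, a logit scale, a minimum difference of 0.2, the compared groups alone, events without variation left out, the replicate block and leaving out each library.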

Additional observations from a re-analysis of the deposited data

Results flagged for a closer look

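Of 140 sets of 1 measure in 1 group of 4, 6 or 8 libraries, 11 had a library far from the others by Dixon's test, which chance gives in about 1 in 20 sets. Exon 22 inclusion was 0.356 PSI in HSALR PBS gastrocnemius replicate 6 at 7 days, with the other 7 libraries at 0.114 to 0.210. It was 0.998 in FVB gastrocnemius replicate 1 at 4 days, with the others at 0.997. That second flag rests on the last decimal of the PSI values alone, because the other values tie.

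Atp2a1 was 20515 TPM in PMO gastrocnemius replicate 2, with the others at 17235 to 17744 TPM, and 18371 TPM in 2-day gastrocnemius replicate 1, with the others at 17008 to 17086 TPM.

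Atp2a2 was the measure flagged most often. It was 712 TPM in 15 mg/kg gastrocnemius replicate 4 at 7 days (others 259 to 289 TPM) and 1998 TPM in HSALR PBS gastrocnemius replicate 3 at 4 days (others 421 to 641 TPM). It was 222 TPM in nascent RNA of HSALR PBS quadriceps replicate 2 (others 61.4 to 86.6 TPM) and 530 TPM in 3-month HSALR PBS quadriceps replicate 3 (others 70.7 to 143 TPM).

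Casq2 was 82.9 TPM in HSALR PBS quadriceps replicate 2 at 4 days (others 14.6 to 21.8 TPM) and 53.5 TPM in 3-month treated quadriceps replicate 1 (others 10.2 to 21.2 TPM). Pln was 6.20 TPM in FVB quadriceps replicate 3 at 4 days (others 2.57 to 3.11 TPM).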

How the results depend on the processing

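Of 1162 values of 100 results under the alternatives, 1086 kept their direction and side of the threshold, 52 lost a call, 4 gained one and 20 reversed, none of the reversed being called. The 100 results are exon 22 and Sln in every comparison, the mean exon 22 PSI of each group, and other member results only where called. Calls gained by the other members are therefore not counted, such as those of Atp2a2 and Pln in nascent against total RNA when rescaled. With the compared groups alone, also over events with a value in all their libraries, the exon 22 calls were lost for the doses (0.228 PSI), quadriceps at 4 days (0.469) and 7 days (0.566) and nascent RNA at 2 days (0.366); the cause was not tested. Leaving out 1 library moved exon 22 between 0.213 and 0.254 for the doses, -0.016 and 0.080 in quadriceps at 1 day, 0.157 and 0.252 at 2 days, and 0.215 and 0.270 in nascent RNA at 1 day. It moved exon 22 between -0.038 and 0.055 for the muscles in HSALR PBS, -0.037 and 0.056 for their HSALR effects and -0.364 and -0.271 for their treatment effects. It moved the Sln log2 change between -0.27 and 0.23 (30 mg/kg EEV4-PMO against PMO), -0.044 and 0.388 (gastrocnemius, 1 day), -0.10 and 0.33 (2 days), -0.42 and 0.10 (total RNA, 1 day), -1.05 and 0.37 (total RNA, 2 days), -0.36 and 0.52 (nascent RNA, 2 days), -0.22 and 1.21 (nascent against total change, 2 days) and 0.57 and 1.39 (muscles, FVB). With the replicate block, the exon 22 difference of PMO reversed to 0.0038 PSI, and Pln at 30 mg/kg (0.49, adjusted p = 0.078) and Atp2a1 in 7-day quadriceps (0.33, adjusted p = 0.053) lost their limma calls; these samples share only a number. No other call changed under the block, and where numbers paired the samples it changed none. Compared alone, Atp2a1 lost its call against PMO (adjusted p = 0.058), against FVB in gastrocnemius at 4 days (0.059), in 7-day quadriceps (0.17) and between the muscles in HSALR PBS (0.15), and Atp2a2 between the muscles in FVB (0.12). Rescaled by median ratio, Atp2a1 lost its calls in gastrocnemius at 4 days (adjusted p = 0.10) and in 7-day quadriceps (0.12). Leaving out events without variation, an alternative chosen after seeing the data, kept every exon 22 call and lost that of the exon 20 and 21 event between the doses (adjusted p = 0.084); it called 2 against 4 events over the whole table in gastrocnemius at 4 days and 2 against 8 in quadriceps at 2 days. Without read counts, the precision that depth gives to a single PSI or TPM value is not known.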

Other observations

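The product of Atp2a1 TPM and exon 22 PSI gives a level of transcript with the exon. It was 21582 ± 659 at 30 mg/kg EEV4-PMO in gastrocnemius, against 3545 ± 1455 in HSALR PBS (n = 8) and 21331 ± 571 in FVB (SD, n = 4 unless given). The treated and FVB libraries overlapped in this product, although none overlapped in PSI. The product with 1 minus PSI, a level of transcript without the exon, was 2110 ± 962 at 30 mg/kg and 64.4 ± 18.2 in FVB.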
